A study of Mus musculus with 6 samples.

Results

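The rows examined here are the genes that house small nucleolar RNAs (snoRNAs) and the small RNAs themselves, in fully grown mouse oocytes with and without NAT10. They were chosen by name from a table of 55291 gene symbols: every Snhg gene with a plain number, every Snora, Snord and Scarna gene, and Gas5, Rmrp and Rpph1. This gave 166 rows, of which 17 are host transcripts (Gas5 and 16 Snhg genes) and 149 are small RNAs. The small RNAs comprise 98 box C/D snoRNAs, 40 box H/ACA snoRNAs, 9 small Cajal body RNAs (scaRNAs) and 2 RNAs of the ribonucleases MRP and P (Rmrp and Rpph1).

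The study compared wild-type (WT) females with females carrying a Gdf9-cre conditional knockout of Nat10 (Nat10 cKO), with 3 libraries in each group. Gdf9-cre is active in oocytes, so the deletion concerns the germ cell and not the surrounding follicle cells. Each library held 10 oocytes, pooled after PMSG, a gonadotropin given to drive follicles to grow. The females are described as mature, and the sources used here give neither strain nor exact age, nor the alleles carried by the WT females. Collection was 36 to 48 h after PMSG in the sample labels and 32 to 48 h in the series' design text, and 0.2 µl of a 1000-fold dilution of ERCC spike-in RNA went into each lysate. The Smart-seq2 protocol used begins with an oligo-dT primer and so selects polyadenylated RNA. The labels do not say whether pools came from separate animals, so p-values measure only the spread between these libraries.

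Small nucleolar RNAs guide chemical modification of ribosomal RNA. Box C/D snoRNAs direct methylation of the ribose, box H/ACA snoRNAs direct the change of uridine to pseudouridine, and scaRNAs do the same work on spliceosomal RNAs in Cajal bodies. Most are cut from introns of longer transcripts, and mature snoRNAs mostly lack a poly(A) tail. Host transcripts such as Gas5 and Snhg1 are spliced and polyadenylated, encode little or no protein, and are known as targets of nonsense-mediated decay. NAT10 acetylates cytidine, and on 18S ribosomal RNA it works with the box C/D RNA Snord13 (U13).

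Of the small RNAs that carried enough reads to be followed, 4 are shown first, since their class-defining boxes are short. Sequences are from GENCODE M21 on GRCm38, 5′ to 3′ and written as DNA. Capitals mark TGATGA, taken as the C box, and the last CTGA, taken as the D box, in the box C/D RNAs, and the terminal ACA in the box H/ACA RNAs.
Snora47, chr13:95330600-95330737, plus strand: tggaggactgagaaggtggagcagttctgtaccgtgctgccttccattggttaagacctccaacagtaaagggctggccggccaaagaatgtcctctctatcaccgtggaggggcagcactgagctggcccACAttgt
Snora30, chr7:127527874-127528003, plus strand: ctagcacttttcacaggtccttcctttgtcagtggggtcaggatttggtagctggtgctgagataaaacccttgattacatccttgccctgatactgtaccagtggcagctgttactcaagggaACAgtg
Snord118, chr11:69073427-69073561, plus strand: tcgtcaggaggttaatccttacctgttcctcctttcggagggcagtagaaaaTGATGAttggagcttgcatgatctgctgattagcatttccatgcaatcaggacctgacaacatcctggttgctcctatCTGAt
Snord104, chr11:106500993-106501062, plus strand: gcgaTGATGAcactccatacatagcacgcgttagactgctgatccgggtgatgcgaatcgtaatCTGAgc

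The boxes separate the named classes well over all small RNA rows. TGATGA followed by CTGA was found on the transcript strand in 74 of 98 box C/D RNAs (75.5%) and in 0 of 40 box H/ACA RNAs. ACA lay within the last 8 bases in 38 of 40 box H/ACA RNAs (95%) and in 7 of 98 box C/D RNAs (7.14%). Box C/D RNAs had a median length of 84.5 bases (64 to 238), and box H/ACA RNAs of 132.5 bases (121 to 205).

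Recovered reads numbered between 33.5 and 74.1 M per library, and Nat10 itself fell from 43.8 ± 5.59 to 6.0 ± 0.301 CPM (SD, n = 3, log2 change -2.67, limma adjusted p = 4.29e-08). The labels do not name the deleted exons, so the remaining Nat10 reads do not measure intact transcript. CPM, the usual read counts at a common library size, are scaled by TMM, which aligns the bulk of genes between libraries. All 10 oocyte markers were detected, with summed levels of 24529 to 25246 CPM in WT and 28545 to 33432 CPM in Nat10 cKO libraries. The sum does not stand for each marker. At a limma adjusted p under 0.05, 6 were higher and 3 lower in Nat10 cKO, where 17.4% of all tested genes were higher and 17.6% lower. Markers of other cells were present at low summed levels, and none of these lists had a member at 0. The 12 granulosa and cumulus markers summed to 408 to 461 CPM in WT and 385 to 428 CPM in Nat10 cKO, the 10 of theca, stroma and endothelium to 93.8 to 99.4 and 91.9 to 106 CPM, and the 10 of blood to 51.2 to 55.8 and 41.3 to 44.6 CPM. At the same threshold 1 was higher and 2 lower of 10 tested granulosa and cumulus markers. For theca, stroma and endothelium it was 1 and 2 of 5 tested, and for blood 0 and 1 of 4. The part of such cells in the results below was not tested, and in pools of cells fewer cells of a type and less RNA per cell cannot be told apart.

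Host transcripts and small RNAs differed sharply in how many reads they held. The 17 host transcripts took 51100 reads over the 6 libraries, and the 149 small RNAs took 2004. Host reads made up 0.0141 to 0.0170% of a library and small RNA reads 0.000375 to 0.000973%. All 17 hosts had at least 1 read, whereas 104 of the 149 small RNAs had none in any library. A count of 0 in 325.6 M reads allows up to 3 reads, or 0.00921 CPM without TMM. Smart-seq2 reads carry no molecular identifiers, so this limit covers counting error only. It takes reads as independent, although 82.2% of small RNA values above 0 were even. Nor can it be applied to the 65 rows, described below, that share exon bases with a same-strand gene.

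Above 10 recovered reads in at least 3 libraries stood 20 members, 15 hosts and 5 small RNAs. The hosts were Gas5, Snhg1, Snhg4, Snhg5, Snhg6, Snhg8, Snhg9, Snhg10, Snhg11, Snhg12, Snhg14, Snhg15, Snhg17, Snhg18 and Snhg20. The small RNAs were Snora47, Snora30, Snord118, Snord104 and Snord13. Of the 20, 14 (12 hosts and 2 small RNAs) were above 10 reads in all 6 libraries, and with more than 20 reads in 3 libraries 14 hosts and 4 small RNAs remained past the limit. Snord13 stood just inside, above 10 reads in exactly 3 libraries, and Snora21 just outside, in 2. The 2 hosts below the limit were Snhg16, with 31 reads in all, and Snhg3, with 6.

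Whether a small RNA row had any reads went with where the gene lies. Of 8 small RNAs that lie in no other gene on their strand, 6 had a read (75%), and of 67 that lie inside another gene without touching its exons, 35 did (52.2%). Of 74 whose bases are also exon bases of another gene, 4 did (5.41%). The 4 were Scarna3a, Scarna13 and Snora34, which overlap only a microRNA model, and Rmrp, which overlaps only the opposite-strand gene Ccdc107 and held 2 reads. The 65 small RNAs that share exon bases with a same-strand gene other than a microRNA all stood at 0. The sources used here do not say how reads that fall in 2 genes at once were counted, so a 0 in these 65 rows does not measure the RNA.

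**Figure D1:**
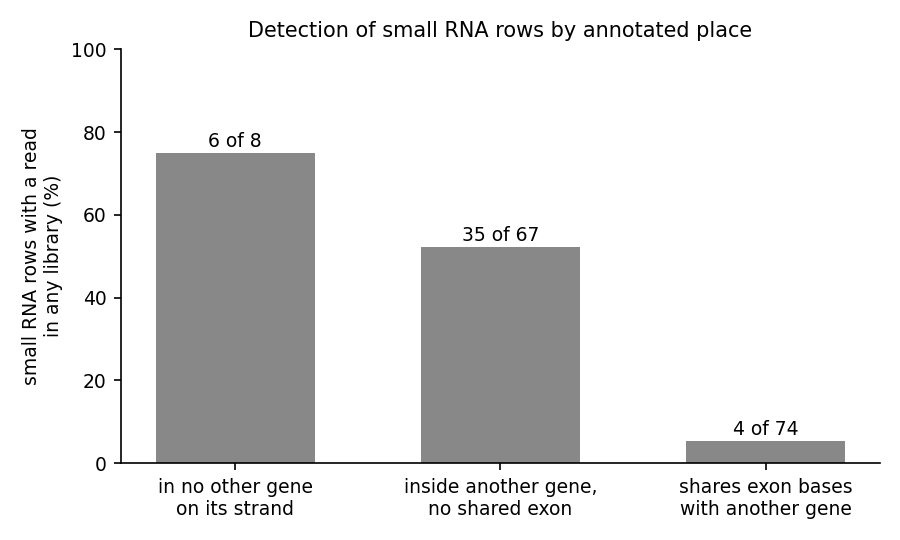
Percentage of small RNA rows with a read in any of the 6 libraries, by annotated place (bars from 0, the number of rows above each). The bar for rows that share exon bases with another gene stands at 5.41%, against 52.2% and 75% for the other places.

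The small RNA rows inside the host transcripts were mostly at 0. In 13 of the hosts lie 38 of the small RNA rows, and 4 of these had reads, 46 in all. They were Snord87 in Snhg6 with 20 reads, Snora78 in Snhg9 with 15, Scarna13 in Snhg10 with 7 and Snord123 in Snhg18 with 4. The 3 rows in Gas5 (Snord47, Snord78 and Snord80), Snord22 in Snhg1 and the 2 in Snhg5 (Snord50a and Snord50b) share exon bases with their host and had no read. The 17 Snord116 copies inside Snhg14 share no exon bases with it and had no read either. They are near-identical copies, and the treatment of reads that match several copies is not stated.

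The host transcripts as a group did not move in 1 direction. Of 15 tested hosts, 2 were higher in Nat10 cKO oocytes (Snhg1 and Snhg17), 2 were lower (Snhg6 and Snhg5), and 11 did not pass the limma threshold, an adjusted p of 0.05. Over all 18353 genes tested, 35% passed, 17.4% higher and 17.6% lower, so 4 of 15 is near the background. The median log2 change of the tested hosts was 0.02, against 0.00096 over all tested genes. The groups did not overlap for 6 hosts, 3 in each direction, where 48.3% of all tested genes had groups that did not overlap. Summed over the 17 hosts the level was 153 ± 17.9 CPM in WT oocytes and 155 ± 10.9 CPM in Nat10 cKO oocytes (SD, n = 3), a ratio of 1.01. Without Gas5 and Snhg1 the sum was 101.04 ± 11.9 CPM in WT oocytes and 82.8 ± 5.84 CPM in Nat10 cKO oocytes, a ratio of 0.819. Both had higher means in Nat10 cKO oocytes, so a lower ratio without them follows from that choice. A sum without the lower hosts was not made.

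Snhg1, which houses several box C/D snoRNAs, was measured at 11.6, 12.7 and 14.1 CPM in WT replicates 1, 2 and 3 and at 25.6, 22 and 21.6 CPM in Nat10 cKO replicates 1, 2 and 3. All 3 Nat10 cKO libraries lay above all WT libraries, and Nat10 cKO replicate 1 was the highest. The log2 change was 0.80 (SE 0.128, limma adjusted p = 0.000506), a rise of 1.80-fold in mean CPM. The gene lies at chr19:8723475-8726443 on the plus strand, and its exons include the bases of Snord22 and of 7 unnamed snoRNA models.

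Snhg17 was low, at 0.247, 0.345 and 0.373 CPM in WT against 0.962, 1.01 and 0.857 CPM in Nat10 cKO. These values rest on 8, 12 and 24 reads in WT and on 72, 48 and 62 reads in Nat10 cKO. The groups were apart, and mean CPM was 2.93-fold higher in Nat10 cKO. The log2 change was 0.56 (SE 0.118, limma adjusted p = 0.00311) on the log2(CPM + 1) scale, where changes of low genes come out too small. edgeR on the recovered reads gave 1.52 (adjusted p = 0.00665) against 33.8% of all genes called by that test.

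Snhg6 was measured at 31.6, 26.2 and 36.6 CPM in WT and at 22, 17.0 and 21.2 CPM in Nat10 cKO libraries. Each Nat10 cKO library lay below each WT library, with Nat10 cKO replicate 2 the lowest. Snhg6 fell by 0.62 in log2(CPM + 1) units (SE 0.142, limma adjusted p = 0.00466), and mean CPM in Nat10 cKO was 0.637 of that in WT. Snhg6 (chr1:9941959-9944118, minus strand) shares exon bases with Mcmdc2 on the opposite strand, and without knowledge of strand in the counting the reads of this pair cannot be told apart.

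Snhg5, the host of Snord50a and Snord50b, stood at 11.2, 13.7 and 13.3 CPM in WT and at 9.85, 8.51 and 10.4 CPM in Nat10 cKO libraries. The groups did not overlap, but by a small margin. Snhg5 fell by 0.38 in log2(CPM + 1) units (SE 0.139, limma adjusted p = 0.0493). Among other settings, this call was lost with edgeR (adjusted p = 0.0507), with library sizes in place of TMM and when any of WT replicates 2 and 3 and Nat10 cKO replicates 1 and 2 was left out (adjusted p between 0.114 and 0.168).

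Gas5 held the most host reads, 14867 or 29.1% of the total, and is a host of box C/D snoRNAs known for its rise when growth stops. It was measured at 39.8, 34.0 and 44.5 CPM in WT and at 53.4, 47.8 and 45.0 CPM in Nat10 cKO libraries. The lowest Nat10 cKO library lay just above the highest WT library. The log2 change was 0.30 (SE 0.118), which missed the threshold (limma adjusted p = 0.0604), and it passed with library sizes in place of TMM, with DESeq2, without WT replicate 3 (adjusted p = 0.0485) and without Nat10 cKO replicate 3 (adjusted p = 0.0342).

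**Figure D2:**
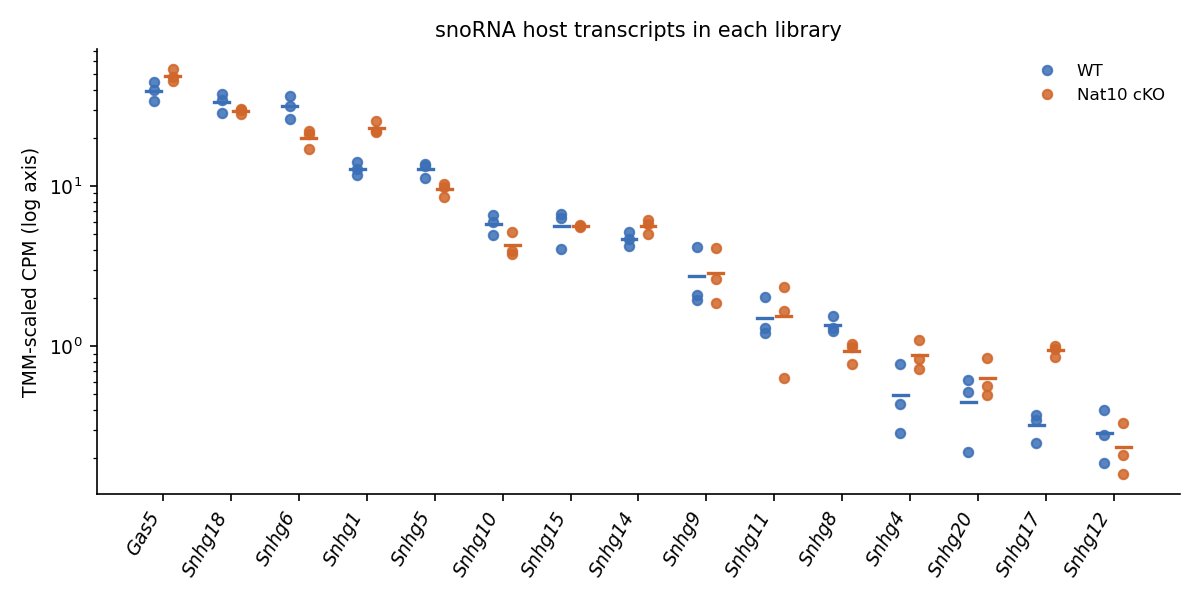
TMM-scaled CPM (log axis) of the 15 tested host transcripts, 1 point per library and a line at the mean of each group of 3, ordered by the WT mean. Snhg1 and Snhg17 libraries from Nat10 cKO lie above all WT libraries, and those of Snhg6 and Snhg5 lie below.

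The other hosts spanned a wide range and did not pass the test. Snhg18, the second most read host, was at 34.5, 28.5 and 37.4 CPM in WT and at 30.2, 29.7 and 28.2 CPM in Nat10 cKO, and the groups overlapped (log2 change -0.17, SE 0.119, limma adjusted p = 0.282). Snhg8, the host of Snora24, was at 1.24, 1.29 and 1.54 CPM in WT and at 0.989, 1.03 and 0.774 CPM in Nat10 cKO. Its groups were apart, yet the log2 change of -0.29 (SE 0.142) did not pass (limma adjusted p = 0.132). Snhg10 had means of 5.83 ± 0.804 and 4.28 ± 0.751 CPM (log2 change -0.37, limma adjusted p = 0.0922).

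Snhg4 had means of 0.499 ± 0.252 CPM in WT libraries and 0.881 ± 0.191 CPM in Nat10 cKO libraries (log2 change 0.34, limma adjusted p = 0.0909), and it passed without WT replicate 3 (adjusted p = 0.0448). Snhg14, the long imprinted transcript that runs antisense to Ube3a, had means of 4.67 ± 0.468 and 5.65 ± 0.589 CPM (log2 change 0.23, limma adjusted p = 0.261). Its exons overlap those of Ube3a on the opposite strand, so its reads are uncertain without strand. Snhg15, Snhg9, Snhg11, Snhg12 and Snhg20 had log2 changes between -0.06 and 0.18 on the log2(CPM + 1) scale, and their groups overlapped. By edgeR they lay between -0.30 for Snhg12 and 0.53 for Snhg20, and none passed. In Snhg9 the spread within a group was wide, from 1.95 to 4.15 CPM in WT and from 1.85 to 4.12 CPM in Nat10 cKO, and its exons overlap those of Rps2 on the opposite strand. Snhg11 is typed as protein coding in GENCODE M21.

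Below the limit, Snhg16 had 0, 0 and 6 reads in WT and 12, 4 and 9 reads in Nat10 cKO libraries, too few for a test. It shares exon bases with St6galnac2 on the opposite strand.

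Per kilobase of merged exons the order of the hosts changes. In WT, Snhg6 stood at 27.5 CPM per kb, Snhg18 at 22.5, Snhg9 at 14.9, Snhg10 at 11 and Gas5 at 10.5. Snhg5 followed at 7.37, Snhg1 at 4.31 and Snhg15 at 4.17 CPM per kb. In Nat10 cKO, Snhg18 stood at 19.8, Snhg6 at 17.5, Snhg9 at 15.7, Gas5 at 13.0, Snhg10 at 8.09 and Snhg1 at 7.77 CPM per kb. Neighbours such as Snhg10 and Gas5 in WT differ by less than their spread between libraries. Merged exons include transcripts that keep their introns, and those of Snhg1 cover the whole gene, so these levels are lower than for the spliced form alone.

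Many snoRNA hosts, like genes of ribosomal proteins, are known to begin with a run of pyrimidines that ties their translation to growth signals. The windows below show the start region of hosts named above, from RefSeq on GRCm38.p6, 15 bases before the start to 24 after it, 5′ to 3′ on the gene's strand. Capitals mark the longest run of C and T that begins within 5 bases of the start.
Gas5, chr1:161035151-161035190, plus strand: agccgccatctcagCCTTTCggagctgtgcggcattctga
Snhg1, chr19:8723472-8723511, plus strand: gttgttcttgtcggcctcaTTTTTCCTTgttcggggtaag
Snhg17, chr2:158361485-158361524, minus strand: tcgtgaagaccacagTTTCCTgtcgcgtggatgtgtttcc
Snhg8, chr3:123508312-123508351, minus strand: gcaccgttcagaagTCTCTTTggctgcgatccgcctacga
Snhg5, chr9:88522873-88522912, minus strand: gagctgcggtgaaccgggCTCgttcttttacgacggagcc

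A run of at least 5 pyrimidines was found at 9 of 17 listed host starts (52.9%), and at 26.4% of 32851 starts of all genes in the same table. Both starts of Gas5 and of Snhg17 are counted, and the starts not shown have runs of 3 and 2 bases. The run is 9 bases in Snhg1, 6 in the Gas5 start shown, 6 in Snhg17 and 7 in Snhg8, and 3 in Snhg5.

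Among the small RNAs, 6 rows were tested: the 5 above the limit and Snora21. By limma 0 were higher and 2 were lower in Nat10 cKO oocytes, Snora47 and Snora30, both of the box H/ACA class. At an unadjusted p under 0.05 these counts were also 0 and 2, as they were by edgeR and by DESeq2. With 6 rows tested, 2 is near the 35% of all genes. The 4 that did not pass had log2 changes between -0.16 and 0.23 on the log2(CPM + 1) scale, where changes of low genes come out too small. By edgeR they lay between -0.99 for Snora21 and 1.23 for Snord13, and none passed. Summed over all 149 rows, small RNAs were at 6.30, 6.57 and 9.90 CPM in WT and at 5.76, 3.74 and 4.49 CPM in Nat10 cKO libraries, a ratio of means of 0.614. WT replicate 3 was the highest of the 6. Without Snora47 and Snora30 the means were 2.39 ± 0.487 and 2.27 ± 0.890 CPM, so those 2 rows held most of the difference.

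Snora47, shown above with its terminal ACA, held 975 reads, 48.7% of all small RNA reads. It was measured at 3.24, 3.39 and 5.39 CPM in WT and at 2.21, 1.83 and 2.12 CPM in Nat10 cKO libraries. The groups were apart, and WT replicate 3 stood well above the others. Snora47 fell by 0.69 in log2(CPM + 1) units (SE 0.180, limma adjusted p = 0.00969), and without WT replicate 3 it was -0.50 and no longer passed (adjusted p = 0.0633).

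Snora30 was at 0.989, 1.03 and 1.55 CPM in WT and at 0.281, 0.336 and 0.415 CPM in Nat10 cKO libraries, from 32, 36 and 100 reads against 21, 16 and 30. The groups were far apart, with mean CPM in Nat10 cKO at 0.288 of that in WT. The log2 change was -0.70 (SE 0.137, limma adjusted p = 0.00189) on the log2(CPM + 1) scale and -1.80 by edgeR (adjusted p = 0.00256). It passed without each library in turn.

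**Figure D3:**
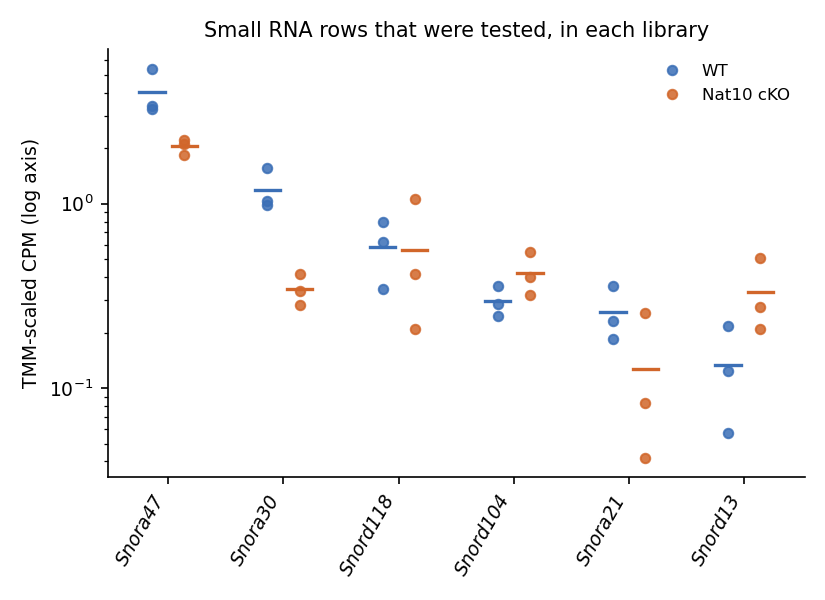
TMM-scaled CPM (log axis) of the 6 tested small RNA rows, 1 point per library and a line at the mean of each group of 3. Snora47 and Snora30 are lower in all 3 Nat10 cKO libraries, and the groups overlap for the other 4.

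Snord13, the partner of NAT10 on 18S ribosomal RNA, was near the limit of detection. It had 4, 2 and 14 reads in the WT libraries and 38, 10 and 20 in the Nat10 cKO libraries, which is 0.124, 0.0574 and 0.218 CPM against 0.508, 0.210 and 0.277 CPM. Nat10 cKO replicate 1 was the highest, and the groups overlapped. The log2 change of 0.23 (SE 0.114) did not pass (limma adjusted p = 0.136), nor did the edgeR change of 1.23 (adjusted p = 0.142). A difference in Snord13 was not detected. Snord13 is transcribed from a gene of its own, not from an intron, and lies in no other annotated gene on its strand.

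Snord118 (U8), needed for processing of the large ribosomal subunit RNAs, had 20, 12 and 51 reads in WT and 79, 10 and 30 in Nat10 cKO. The groups overlapped, with means of 0.585 ± 0.226 and 0.560 ± 0.441 CPM (log2 change -0.05, limma adjusted p = 0.854). Snord104 was at 0.297 ± 0.0558 and 0.422 ± 0.117 CPM (log2 change 0.13, limma adjusted p = 0.390). Snora21, inside the ribosomal protein gene Rpl23, was at 0.257 ± 0.0893 and 0.126 ± 0.112 CPM (log2 change -0.16, limma adjusted p = 0.271).

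The remaining small RNAs had at most 30 reads each in all libraries together. Snora20, inside the chaperonin gene Tcp1, had 30, of which 16 came from WT replicate 3. Snord87, inside Snhg6, had 20, Snord58b, inside Rpl17, had 19, and Scarna6, inside Atg16l1, and Snord37, inside Eef2, had 18 each. Of 9 scaRNAs 5 had any read, of 40 box H/ACA RNAs 13, of 98 box C/D RNAs 26 and of the 2 ribonuclease RNAs 1. Rpph1, the RNA of ribonuclease P, had none. Even numbers made up 82.2% of small RNA values above 0 and 66.0 to 68.8% of values above 0 over all genes of a library, and the part of this in the results was not tested.

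**Figure D4:**
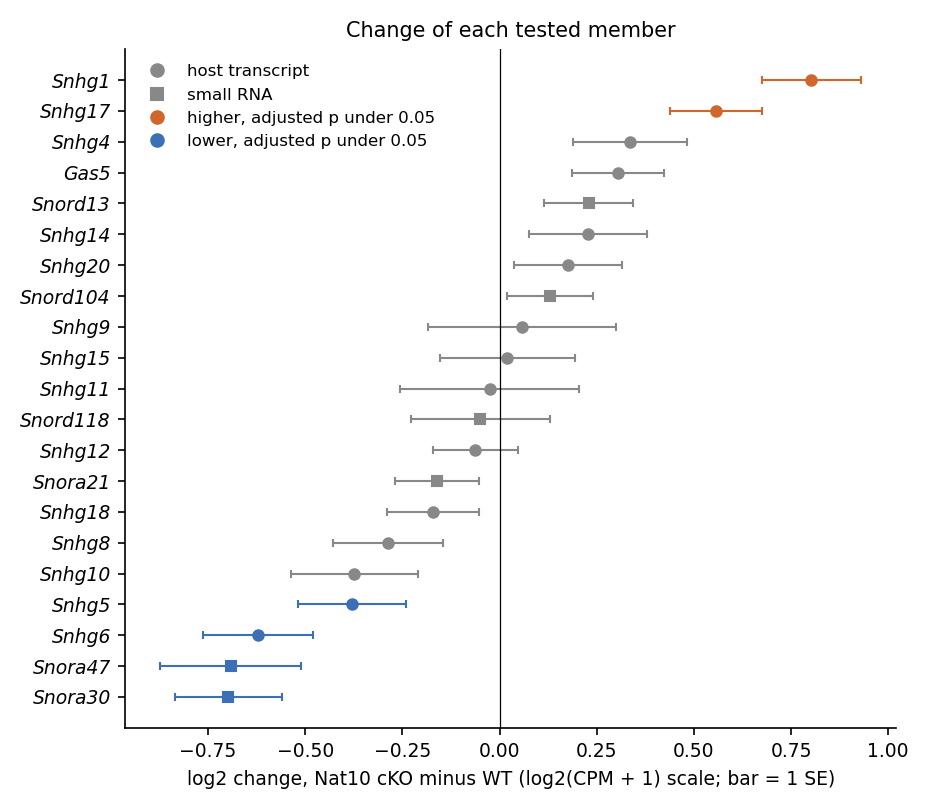
Log2 change (Nat10 cKO minus WT, log2(CPM + 1) scale) of the 21 tested members, with bars of 1 SE, circles for hosts and squares for small RNAs. Snhg1 and Snhg17 stand highest and Snora30, Snora47, Snhg6 and Snhg5 lowest, coloured where the limma adjusted p is under 0.05.

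The small RNAs inside a gene were set against that gene, as reads of the small RNA per 1000 reads of the gene. For Snora47, which lies in an intron of Zbed3, the values were 0.581, 0.617 and 1.00 in WT and 0.311, 0.238 and 0.320 in Nat10 cKO libraries. The groups were apart, with a log2 difference of -1.31 (two-sided exact permutation p = 0.1, the smallest that 20 assignments allow, 0.133 adjusted over 4 pairs). Zbed3 was itself the most abundant of the tested holding genes and was higher in Nat10 cKO, from 5482 ± 103 to 7132 ± 545 CPM (log2 change 0.38, limma adjusted p = 0.00274). So the small RNA row and its holding gene moved in opposite directions.

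Snora30 lies in both Srcap, which encodes a chromatin remodelling enzyme, and the readthrough gene model Gm42715. Srcap was at 1.15 ± 0.509 and 1.55 ± 0.0198 CPM and Gm42715 at 1.63 ± 0.449 and 1.08 ± 0.188 CPM, and neither passed the limma threshold. Per 1000 reads of Gm42715, Snora30 had 889, 554 and 813 reads in WT and 313, 314 and 326 in Nat10 cKO. Per 1000 reads of Srcap it had 914, 610 and 2273 in WT, a wide spread, and 183, 213 and 268 in Nat10 cKO. For each pair the exact permutation p was 0.1, the smallest possible (0.133 adjusted over 4 pairs). The 2 genes share exons, so how their reads were divided is uncertain. Snora21 per 1000 reads of Rpl23 ranged from 0.857 to 1.58 in WT and from 0.267 to 1.39 in Nat10 cKO (exact permutation p = 0.3), and these groups overlapped.

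Protein-coding genes that hold a small RNA row on the same strand leaned upward on the TMM scale. There were 70, of which 68 were tested, and 34 were higher and 6 lower in Nat10 cKO oocytes, with a median log2 change of 0.25. Over all tested genes 17.4% were higher and 17.6% lower, with a median of 0.00096. Of the 48 tested genes in which the small RNA lies in an intron of every transcript that spans it, 25 were higher and 6 lower. The count of 40 called fell to 24 without WT replicate 3 (21 higher, 3 lower) and to 26 without Nat10 cKO replicate 2 (23 higher, 3 lower). Calls over all genes fell as well, from 6422 of 18353 tested to 4308 of 18518 and 4465 of 19574. Genes of ribosomal proteins and translation factors are frequent in this list.

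The examples in this paragraph were chosen after their values were seen. Snx5, which encodes a sorting nexin and holds Snord17, went from 13.1 ± 1.69 to 44.8 ± 9.13 CPM (log2 change 1.69, limma adjusted p = 1.06e-05). Nop53, a ribosome assembly factor that holds Snord23, went from 6.83 ± 1.00 to 14.9 ± 0.916 CPM (log2 change 1.03, limma adjusted p = 0.000211). Tcp1, of the chaperonin that folds actin and tubulin, rose by 0.54 and Rpsa, of the small ribosomal subunit, by 0.55 on the log2 scale. The 6 that fell were Dcaf5, Rpl17, Rpl39, Cop1, Ccar1 and Rpl37, with log2 changes from -0.74 to -0.29. Exons of Snx5, Tcp1 and Ccar1 overlap those of opposite-strand genes, and their reads are uncertain to that extent.

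**Figure D5:**
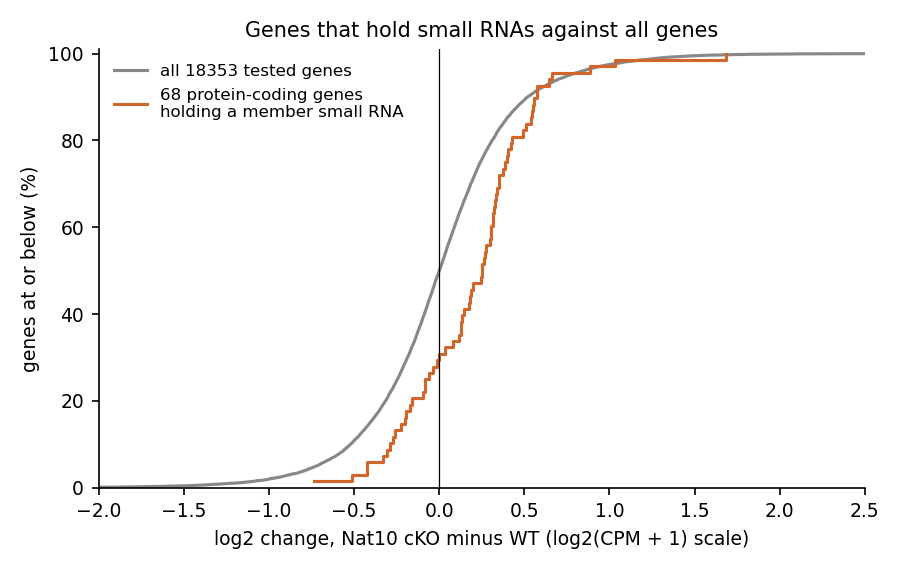
Cumulative percentage of genes at or below each log2 change (Nat10 cKO minus WT, log2(CPM + 1) scale) for 68 protein-coding genes that hold a small RNA row and for all 18353 tested genes. The curve of the holding genes lies to the right, with a median of 0.25 against 0.00096.

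A further 10 genes that hold small RNA rows are neither protein coding in GENCODE M21 nor members. Of the 7 tested, 5 were higher and 0 lower by limma, edgeR and DESeq2 alike, and 1 was lower at an unadjusted limma p under 0.05. Over all genes 17.4% were higher and 17.6% lower. Zfas1, a noncoding host of Snord12, went from 7.82 ± 0.712 to 11.2 ± 1.70 CPM (log2 change 0.46, limma adjusted p = 0.0288). The others were 1110038B12Rik, 2410006H16Rik, 2700038G22Rik and Cct6a, with log2 changes of 0.45, 0.36, 0.55 and 2.18. On this log2(CPM + 1) scale changes of low genes come out too small. 2700038G22Rik was at 0.198 ± 0.0909 and 0.762 ± 0.174 CPM, and 1110038B12Rik at 1.05 ± 0.247 and 1.80 ± 0.204 CPM. Cct6a encodes a chaperonin subunit although its gene is typed as a processed transcript in that annotation, and its exons overlap those of Psph on the opposite strand, as those of Zfas1 overlap Znfx1.

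Transcripts of the core proteins that bind box C/D and box H/ACA RNAs were counted next, and the difference between these lists was not tested. For all tested genes the shares were 17.4% higher and 17.6% lower, and lists of 4 genes are short to set against them. Of 4 box C/D core proteins 2 were higher and 0 lower by limma, at an unadjusted p under 0.05, by edgeR and by DESeq2. Nop56 rose from 93.9 ± 4.84 to 134 ± 11.6 CPM (log2 change 0.51, limma adjusted p = 0.00127) and Nop58 by 0.34 (adjusted p = 0.0137). The methyltransferase gene Fbl, with 7.34 ± 1.6 and 8.95 ± 0.686 CPM, did not pass (limma adjusted p = 0.209). Of 4 box H/ACA core proteins 0 were higher and 2 lower by each tool, and at an unadjusted p under 0.05 edgeR and DESeq2 each added 1 higher. Dkc1, the pseudouridine synthase, fell from 207 ± 8.78 to 138 ± 17.4 CPM (log2 change -0.59, limma adjusted p = 0.000797) and Gar1 from 14.8 ± 0.371 to 9.13 ± 2.15 CPM (log2 change -0.66, limma adjusted p = 0.00613). Nhp2, at 61.5 ± 1.55 and 70.2 ± 3.29 CPM, did not pass (limma adjusted p = 0.124). Both of the lower small RNAs are of the box H/ACA class, as are Dkc1 and Gar1, and a link between them was not tested. Exons of Nop56, Dkc1 and Nhp2 overlap those of opposite-strand genes.

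Of 14 genes for assembly and trafficking of snoRNA particles, 6 were higher and 0 lower by limma (7 and 1 at an unadjusted p under 0.05, 6 and 0 by edgeR, 7 and 0 by DESeq2), where 17.4% of all genes were higher and 17.6% lower. Znhit3, a box C/D assembly factor, rose from 14.2 ± 2.24 to 30.1 ± 3.81 CPM (log2 change 1.03, limma adjusted p = 0.000193). Wrap53, which brings scaRNAs to Cajal bodies, rose from 0.807 ± 0.0619 to 2.64 ± 0.664 CPM (limma adjusted p = 0.000639). Its log2 change of 1.00 is on the log2(CPM + 1) scale, where changes of low genes come out too small. Coil, the Cajal body scaffold, rose by 0.74 (limma adjusted p = 0.00281). Exons of Znhit3 overlap those of Myo19 on the opposite strand. Of 13 tested genes for trimming and decay, 3 were higher and 0 lower by limma (5 and 0 at an unadjusted p under 0.05, 2 and 0 by edgeR, 4 and 0 by DESeq2), and 23.1% called is below the 35% of all genes. These were the lariat debranching enzyme gene Dbr1, with a log2 change of 0.81, and the exosome subunit genes Exosc2 and Exosc1, with 0.40 and 0.25.

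Of 11 proteins of ribonucleases P and MRP, Rpp30 was higher (log2 change 0.48, limma adjusted p = 0.00174) and Pop1 lower (-0.46, adjusted p = 0.00722), while Pop7 at -0.23 did not pass (adjusted p = 0.0678). These counts of 1 and 1 were the same by edgeR and by DESeq2, and 18.2% called is below the 35% of all genes. Of 10 genes of nonsense-mediated decay 2 were higher and 2 lower by limma (2 and 1 by edgeR, 2 and 2 by DESeq2). That is 40% called by limma, against 35% of all genes. Smg5 rose by 0.94 and Smg1 by 0.29, and Upf3b fell from 49.3 ± 0.742 to 29.7 ± 2.73 CPM (log2 change -0.72, limma adjusted p = 0.000310). The fourth was Upf1, at -0.45, close to the threshold (limma adjusted p = 0.0439). Over all 6 lists 14 of 56 tested genes were higher and 5 lower. That is 33.9% called, near the 35% of all genes. Without WT replicate 3 these counts were 7 and 4, while calls over all genes went from 6422 to 4308.

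These results are relative to the bulk of oocyte mRNA, and the deposited values carry another scaling. Taken as deposited, with 1 constant for all libraries, the median log2 change of all genes was 0.24, 6.58% of genes were higher and 1.39% lower. When the factor of each library multiplied its per-read shares instead, the median was -0.15, 5.6% were higher and 16.5% lower. Snhg17 passed on both scales, with changes of 0.66 and 0.47. Snhg1 kept its direction, at 1.14 and 0.60, but missed the threshold on both (limma adjusted p = 0.0534 and 0.0869). Snhg6 was at -0.27 as deposited (adjusted p = 0.739) and at -0.83 on per-read shares (adjusted p = 0.00960).

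Snora30 was at -0.57 as deposited (limma adjusted p = 0.0529) and at -0.78 on per-read shares, where it passed. Snora47 was at -0.43 as deposited (limma adjusted p = 0.473) and at -0.85 on per-read shares, where it passed too. Snhg5 passed on neither scale. Of the 68 tested protein-coding genes holding small RNAs, 4 were higher and 0 lower as deposited, against 6.58% and 1.39% of all genes. On per-read shares 4 were higher and 5 lower, against 5.6% and 16.5% of all genes. So their larger share of higher calls was not seen on the scales that use the deposited factors, where fewer genes were called. Whether they still leaned upward against all genes on those scales was not tested. The larger share of higher calls held with median-of-ratios factors (34 higher, 6 lower), library sizes only (35 and 6) and DESeq2 (33 and 6).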

How the data were processed

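RNA of 6 pools of oocytes was sequenced. The submitters' processing notes name STAR 2.7.10a, the build mm10, Trim Galore 0.6.7 and featureCounts, and the sources used here give no settings, annotation or strand. The deposited values of WT replicate 1 are whole counts. In the other 5 columns the authors deposited a scaled signal, whole reads times 1 factor per library (1.38, 0.945, 0.920, 0.908 and 0.932), and the formula is not stated. Dividing by the smallest value above 0 gave whole reads, within 0.001, for 100% of values, 33.5 to 74.1 M per library. ERCC rows were not analysed here.

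limma 3.58.1 (trended, robust) was run on log2(TMM CPM + 1), with filterByExpr (edgeR 4.0.16, minimum count 10, R 4.3.3), on 18353 genes, two-sided, with Benjamini-Hochberg adjustment. edgeR called 33.8% of genes on recovered reads. DESeq2 1.42.0, other scalings, filters, pseudocounts of 0.5 and 0.1, a replicate block and leaving out each library were alternatives. The fits were also run on simulated independent counts in which few genes changed. That setting does not test the scaling or the error rate for data in which many genes are called. Positions and sequences came from GENCODE M21, which holds 165 of the 166 members (Snhg4 is in RefSeq only; Snhg16 has an older symbol), and promoter windows from RefSeq. Tables and plots were made with pandas 2.3.3, matplotlib 3.10.9 and numpy 2.4.6 under Python 3.11.15.

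The members and lists were chosen with earlier results of these data known. Named by rule were Nat10, members tested or above 10 reads in 3 libraries, Snord13, the 5 next by reads (with a tie), genes holding a tested small RNA, and the 3 smallest p of each protein list. Other names were chosen after their values were seen. The sequence of 1 small RNA is not reported here.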

Additional observations from a re-analysis of the deposited data

How the results depend on the processing

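Over 17 alternatives (16 for Snora21) of 22 genes, the 21 tested members and Nat10, 331 of 373 values kept direction and side of the threshold, 17 no longer passed, 5 newly passed and 20 changed sign. All 20 belong to members not called. As deposited, calls numbered 1462 over all genes, 1 among hosts, 0 among small RNAs (limma), 4 among protein-coding holding genes and 4 in the protein lists, and summed changes were 0.38 for hosts and -0.33 for small RNAs. On per-read shares calls numbered 4055, 2, 2, 9 and 8, and the summed host change was -0.20. Without a filter, 12 of 56 genes of the protein lists were called, and 4931 of 32265 over all genes. Leaving out 1 library gave 1 to 2 small RNAs, 24 to 42 holding genes and 11 to 21 genes of the lists, and summed host changes from -0.046 to 0.11. Calls over all genes then ranged from 4308 to 6683, so these counts moved along with the calls of all genes.

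The sign changed for Snhg11 as deposited (0.20), with edgeR (0.034) and with DESeq2 (0.041), and leaving out 1 library gave -0.25 to 0.27. Snhg12 was at 0.0015 as deposited, and leaving out 1 library gave -0.12 to 0.0023. Snhg15 was at -0.17 on per-read shares, -0.0087 with edgeR and -0.0015 with DESeq2, and leaving out 1 library gave -0.17 to 0.14. Snhg18 was at 0.18 and Snord118 at 0.099 as deposited, and Snhg9 at -0.096 on per-read shares. Leaving out 1 library gave -0.26 to 0.12 for Snord118 and -0.16 to 0.32 for Snhg9. The cause was not tested.

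With the replicate number as a block, 3 hosts, 2 small RNAs, 34 holding genes and 15 genes of the lists were called, and 6234 over all genes. Snhg5 no longer passed (adjusted p = 0.0653). Same-numbered libraries correlated at 0.0789, 0.0747 and -0.120. WT replicates 1 and 2 correlated best with their own number, and WT replicate 3 with Nat10 cKO replicate 1 (0.237). Such low values cannot tell whether same-numbered libraries share more than a number. Small RNAs not called had at most 79 reads in a library.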

Other observations

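Beside the members, the table holds 1381 snoRNA and scaRNA gene models under other symbols, mostly unnamed Gm models. Of these, 186 had any read, 15 were above 10 reads in at least 3 libraries and 16 were tested, with 2 higher and 2 lower in Nat10 cKO oocytes. Over all tested genes 35% were called, more than 4 of 16. The models named here were chosen after their values were seen. Gm23083, a snoRNA model, had 332, 355 and 801 reads in WT and 221, 102 and 290 in Nat10 cKO libraries. That is 11 ± 1.28 against 3.04 ± 0.936 CPM (SD, n = 3, log2 change -1.59, limma adjusted p = 6.71e-05), so this row was higher in WT than any small RNA with a Snora or Snord name.

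Gm24233, a snoRNA model, was lower as well, from 0.761 ± 0.375 to 0.200 ± 0.116 CPM (limma adjusted p = 0.0167). Gm24948, a snoRNA model, had 0, 4 and 6 reads in WT and 37, 19 and 50 in Nat10 cKO libraries (log2 change 0.51, limma adjusted p = 0.00352). Gm25395, a scaRNA model, had 8, 8 and 11 reads in WT and 33, 29 and 53 in Nat10 cKO libraries (log2 change 0.39, limma adjusted p = 0.0182). The log2 changes of Gm24948 and Gm25395 are on the log2(CPM + 1) scale, where changes of low genes come out too small. For both, every Nat10 cKO library held more reads than every WT library, and the exons of all 4 models touch no other annotated exon.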
